A study of Solanum lycopersicum with 27 samples.

Results

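Among 34688 loci measured by RNA sequencing of tomato leaves, 150 were chosen by the size of a day 5 excursion in the mature leaves of plants labelled control. The level used was L, the log2 of the group mean in scaled counts (CPM, a locus's count as a share of its library's total, scaled to parts per 1000000) plus a pseudocount of 1. In mature leaves of the control arm, the 75 loci with the largest excess of day 5 over the higher of days 4 and 8 form the peak set. The 75 loci with the largest shortfall of day 5 below the lower of days 4 and 8 form the dip set. The choice rests on measured values, so the shape of both sets in those control libraries is a description and not a finding. The comparisons tested lie between libraries that the choice did not use. The spread behind their p-values was estimated in fits that also held the control libraries of the choice.

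All plants were wild type tomato (Solanum lycopersicum) of the cultivar Moneymaker, grown in pots in long days and 50 days old at the start. Plants labelled water deficit (WD) got no further water, while plants labelled control (WW, for well watered) were brought to soil capacity on alternate days. Mature leaves were sampled in each arm at days 4, 5, 8 and 10, and young, still developing leaves at day 10 only. A mature library came from 1 leaflet and a young one from a whole leaf, and 7 of the 10 groups held 3 libraries. Mature WD and WW leaves of day 8 and mature WW leaves of day 10 had 2 libraries each. Nothing in the labels says whether libraries of a group came from separate plants, so p-values measure the spread between these libraries. Leaves of different days were collected separately, and day cannot be told apart from whatever else a collection shared. In whole leaves, fewer cells of a type and less RNA per cell cannot be told apart.

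When the soil dries, leaves accumulate the hormone abscisic acid, close their stomata and shift many transcripts away from growth and toward protection. Young leaves are still dividing and expanding, whereas mature leaves are fully expanded and export sugar. The control arm is normally read as the steady baseline of such a time course, which is why loci that moved there on a single day are of interest. No identifier of the count table matched the reference table of 41476 tomato genes, so the loci are given by identifier only, and no gene name, function or sequence is attached to them. Leaf and other cell type markers could not be checked for the same reason.

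Library totals ran from 14725924 to 19642202 counts. Replicate 1 of the mature WD day 10 group correlated at r of 0.997 with both mature WW libraries of that day and at 0.897 and 0.899 with its own group (log2(CPM + 1) across loci). The main counts of called loci at day 10 are therefore given with and without it, and so are the fold changes between arms in mature leaf. Directions below are those of the labels.

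The peak set reached a median L of 5.39 in WW leaves at day 5, against 3.73 at day 4 and 3.76 at day 8. Summed over the 75 loci, the day 5 WW libraries held 9969 to 10289 CPM, the day 4 libraries 3669 to 4015 CPM and the day 8 libraries 3184 to 3325 CPM. The excess that chose the loci ran from 0.89 to 2.37 on the log2 scale, with a median of 1.17. The locus at rank 75 had 0.887 and the first one left out 0.883. In the dip set the median L was 2.67 at day 5, against 3.72 at day 4 and 3.64 at day 8, and its summed CPM was 1051 to 1127 at day 5 and at least 2359 in each library of days 4 and 8. The shortfall ran from 0.66 to 2.60 with a median of 0.78, and was 0.656 at rank 75 and 0.649 at rank 76. At least 1 log2 unit was reached by 49 peaks and 17 dips.

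The day 5 WW libraries lay above every WW library of days 4 and 8 at 72 of the 75 peak loci and below all of them at each of the 75 dip loci. Among the 18566 loci tested on these days the shares were 5.08% and 8.99%, which is a background only, since the choice used the same libraries. The 3 peak loci with overlap were Solyc00g277510.2, Solyc00g500200.1 and Solyc00g500130.1, named here after their values were seen. Their day 5 WW values were 10.02, 7.57 and 52.1 CPM for the first, 11.05, 9.11 and 50.7 CPM for the second and 8.79, 9.27 and 53.6 CPM for the third. One library, replicate 3, held most of their signal, and the 3 loci had nearly the same values in every library. Whether they share reads was not tested. At the other 72 peak loci the highest day 5 library was less than 2 times the median one.

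After day 5 the WW leaves did not return to the day 4 level at every locus. Days 4 and 8 lay within 0.5 log2 units of each other at 36 peak loci and at 53 dip loci. At 30 peak loci day 8 was lower than day 4 by at least 0.5, and at 9 it was higher. Mature WW leaves of day 10 were nearer to the mean of days 4 and 8 than to day 5 at 72 of 75 peak loci and at 66 of 75 dip loci. Only 1 peak locus and 3 dip loci were at or beyond their day 5 level at day 10. Choosing loci for an extreme day 5 favours such counts in any other group, and no share over all loci was counted. They are a description and no test of a return. The plot of set medians by library shows these levels, as well as the different course of the WD arm.

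**Figure D1:**
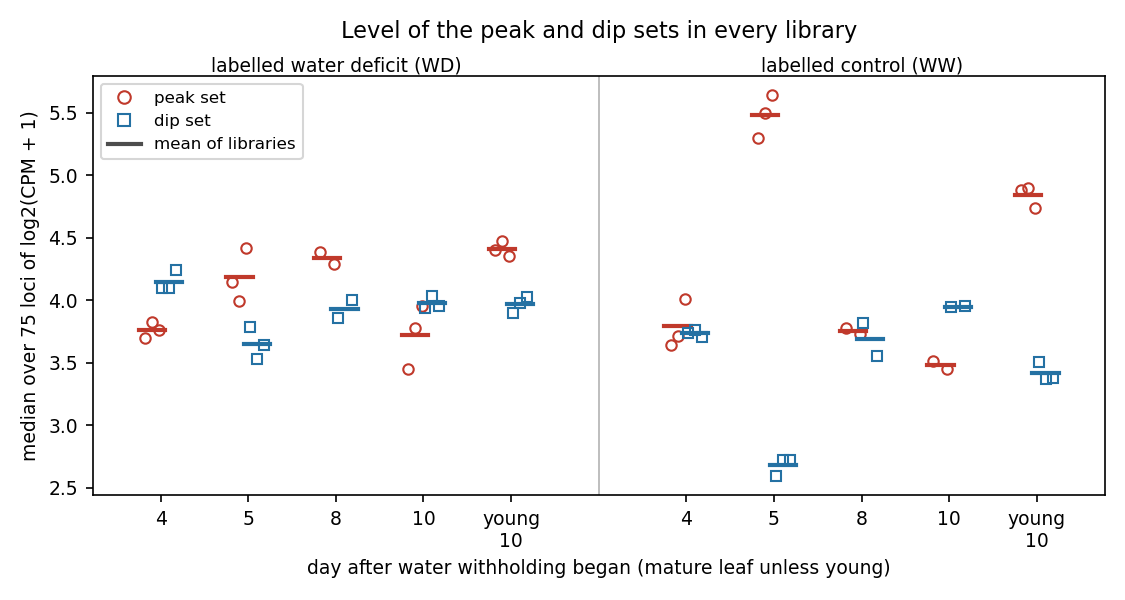
Median over the 75 loci of each set of log2(CPM + 1) in every library (vertical axis) by day and leaf age (horizontal axis), WD libraries left and WW libraries right; points are libraries and bars their means. The peak set circles of WW day 5 stand above all other libraries and its dip set squares below them, as the choice of loci fixed.

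The first question was whether the same loci moved at day 5 in the WD arm, whose libraries had no part in the choice. Many differed there from day 4, but few of the peak loci were also higher than at day 8. All 150 loci passed the expression filter, and all p-values below are from the quasi-likelihood F test of edgeR, adjusted over all loci tested by the Benjamini-Hochberg method. Between days 4 and 5, 47 of the 75 peak loci (62.7%) rose in WD leaves and 7 fell, beside 13.5% and 12% of all loci tested. Of the dip loci, 34 fell (45.3%) and 8 rose, while 5 rose without WD day 5 replicate 3, where 13.3% of all loci rose. The median log2 fold change was 0.72 in the peak set and -0.31 in the dip set, against -0.0047 over all loci. Against day 8, only 9 peak loci were higher at day 5, 20 were lower and 46 were not called, beside 16.7% higher and 15.8% lower among all loci. Of the dip loci, 24 were lower at day 5 than at day 8 and 14 (18.7%) were higher, the latter near the share of all loci. The 14 became 9 without WD day 5 replicate 3, where 13.4% of all loci were higher. Fewer members and fewer of all loci were also called higher without either WD day 8 library.

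Day 5 was called higher than both neighbouring days at 9 of 75 peak loci (12%) in the WD arm, where 3.62% of all loci were higher than both. In the opposite direction 1 peak locus was lower than both, and 0 were without WD day 4 replicate 2 or day 5 replicate 1 in edgeR's test. In the dip set 17 loci (22.7%) were lower at day 5 than on both other days, where the background was 3.08%, and 2 were higher than both. The 9 peak loci became 4 with all 27 libraries in one fit, which holds the mature WD day 10 group. The 1 peak locus lower than both became 0 there. In that fit 5.83% of all loci were above day 4 and 6.65% above day 8. The share above both days was not counted in it. The commonest pattern of the peak set was a rise by day 5 without a called return, in 23 loci, and in another 15 loci day 5 was above day 4 and below day 8. The 2 patterns took 7.85% and 2.01% of all loci tested. The WD day 5 libraries lay above every WD library of days 4 and 8 at 11 peak loci (14.7%, background 6.76%) and below all of them at 25 dip loci (33.3%, background 8.5%).

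**Figure D2:**
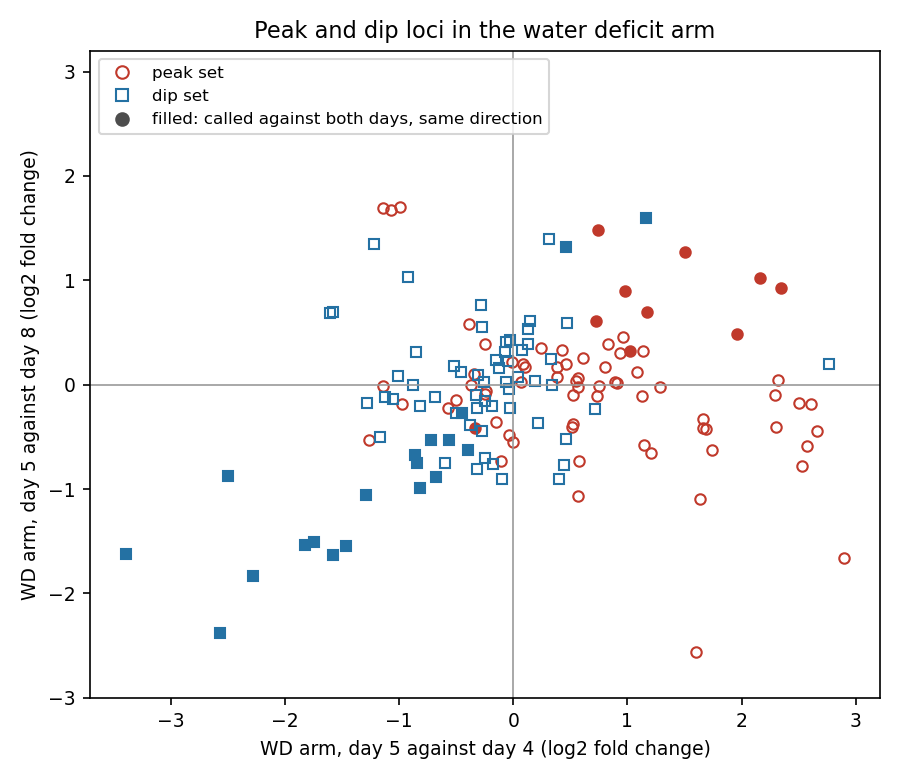
Log2 fold change of WD day 5 against day 4 (horizontal axis) and against day 8 (vertical axis) for the 75 peak and 75 dip loci; filled points were called against both days in the same direction. Peak loci spread mostly to the right (median 0.72) and to both sides of zero on the vertical axis (median -0.0084). Of the peak loci, 9 filled points lie at upper right and 1 at lower left. Of the dip loci, 17 filled points lie at lower left and 2 at upper right.

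Against the mean of days 4 and 8 together, 39 peak loci were higher in WD leaves at day 5 and 10 were lower, where the background was 12.5% and 9.58%. Of the dip loci 30 were lower and 8 (10.7%) higher. The 8 became 5 without WD day 5 replicate 2, where 10.6% of all loci were higher. Fewer members and fewer of all loci were also called higher without WD day 8 replicate 2. With all 27 libraries in the fit, 25 peak loci were called higher, and the background fell to 3.73%. The same fit called 3 dip loci higher and 1 peak locus lower, where 2.78% of all loci were lower. The same ranking applied to the WD arm alone picked 3 of the 75 peak loci (4.00%) among its own top 75. For the dip loci it picked 12 of the 75 (16.0%). Each such top 75 was drawn from all 34688 loci. By group means, WD day 5 lay above both other days at 32 peak loci (42.7%, beside 22.6% of all loci tested). It lay below both at 37 dip loci (49.3%, beside 29.1%). The difference between the arms in the size of the day 5 excursion was not tested, because the WW side was used to choose the loci.

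The largest peak of the WW arm was at a locus with no called change in the WD arm. Solyc11g069220.2 had 1.98, 1.75 and 1.45 CPM at day 4, 1.60, 1.43 and 1.14 CPM at day 5 and 1.60 and 1.30 CPM at day 8 in WD leaves. In WW leaves it had 1.05, 2.07 and 1.52 CPM at day 4, 17.01, 14.8 and 16.7 CPM at day 5 and 2.66 and 1.99 CPM at day 8. The WW day 5 libraries stood far above all others, whereas the WD libraries of these days overlapped. The log2 fold change of WD day 5 against the mean of days 4 and 8 was -0.17 (SE 0.218, adjusted p = 0.629).

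Solyc07g065900.3 held the second largest peak and behaved differently. In WD leaves it had 9.69, 8.92 and 12.2 CPM at day 4, 12.8, 15.4 and 14.6 CPM at day 5 and 15.01 and 14.7 CPM at day 8. In WW leaves it had 17.1, 12.7 and 15.1 CPM at day 4, 106, 119 and 122 CPM at day 5 and 26.4 and 27.6 CPM at day 8. The WD libraries rose slightly at day 5, by 0.53 on the log2 scale (SE 0.120, adjusted p = 0.00175), and were not called apart from day 8 (log2 fold change -0.10, adjusted p = 0.583). Young WW leaves had 94.2 to 95.7 CPM at this locus, close to the WW day 5 level of mature leaves.

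The deepest dip, at Solyc09g098510.4, lay within a decline over days in the WD arm. It had 746, 916 and 898 CPM at day 4, 279.8, 394 and 383 CPM at day 5 and 129 and 139 CPM at day 8 in WD leaves. In WW leaves it had 221, 363 and 235 CPM at day 4, 27.8, 46.1 and 58.5 CPM at day 5 and 377 and 271 CPM at day 8. The groups of either arm did not overlap at day 5 with the other days. WD day 5 was below day 4 (log2 fold change -1.22, SE 0.275, adjusted p = 0.00735) and above day 8 (1.35, SE 0.322, adjusted p = 0.00898), and the second of these was no longer called without either day 8 replicate.

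Solyc01g111350.3, the second deepest dip, had the same shape in both arms. It had 155, 161 and 161 CPM at day 4, 56.7, 54.4 and 55.8 CPM at day 5 and 160.5 and 156 CPM at day 8 in WD leaves. In WW leaves the values were 103, 106 and 98.2 CPM at day 4, 30.2, 25.6 and 27.8 CPM at day 5 and 109 and 102 CPM at day 8. No library of day 5 overlapped with days 4 or 8 in its arm. In WD leaves day 5 was lower than the mean of the other days by a log2 change of -1.50 (SE 0.0591, adjusted p = 8.86e-16).

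Under the rule for naming loci, the largest WD rise at day 5 against the mean of days 4 and 8 was at Solyc09g011080.3 of the peak set. It had 8.42, 8.02 and 8.40 CPM at day 4, 40.6, 41.01 and 40.3 CPM at day 5 and 19.9 and 21.7 CPM at day 8 in WD leaves. In WW leaves it had 15.3, 16.5 and 16.8 CPM at day 4, 128, 131 and 120.3 CPM at day 5 and 62.9 and 71.4 CPM at day 8. Both arms were high at day 5 and intermediate at day 8, at different levels. Its WD log2 fold change against the mean of days 4 and 8 was 1.64 (SE 0.0681, adjusted p = 2.44e-15).

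The next largest WD rise went against the direction in the WW arm. Solyc12g010020.3, a dip locus, had 8.86, 9.43 and 7.82 CPM at day 4, 65.9, 48.2 and 57.5 CPM at day 5 and 46.8 and 50.5 CPM at day 8 in WD leaves. In WW leaves it had 7.30, 6.32 and 6.46 CPM at day 4, 2.62, 4.24 and 4.09 CPM at day 5 and 7.12 and 5.64 CPM at day 8. WD day 5 exceeded day 4 by a log2 change of 2.77 (SE 0.126, adjusted p = 1.26e-13), while day 5 and day 8 overlapped and were not called apart (adjusted p = 0.231).

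The largest falls at day 5 in WD leaves were at Solyc01g006680.4 and Solyc12g006240.2, both dip loci. Solyc01g006680.4 had 55.9, 60.7 and 63.8 CPM at day 4, 5.23, 5.94 and 5.34 CPM at day 5 and 16.6 and 16.5 CPM at day 8 in WD leaves, and 29.8, 27.1 and 33.1 CPM, 7.86, 9.74 and 8.51 CPM, and 22.2 and 21.1 CPM on the same days in WW leaves. The fall at day 5 was common to the arms, with no overlap between days. The WD log2 fold change against the mean of days 4 and 8 was -2.51 (SE 0.0969, adjusted p = 8.74e-16). At Solyc12g006240.2 the WD libraries had 42.7, 48.2 and 43.8 CPM at day 4, 9.08, 7.48 and 10.2 CPM at day 5 and 30.4 and 31.3 CPM at day 8, a log2 change of -2.06 (SE 0.0934, adjusted p = 1.62e-14). The WW libraries of the same days had 35.2, 32.95 and 30.9 CPM, 12.7, 12.4 and 10.6 CPM, and 69.4 and 58.7 CPM. Here, too, day 5 lay below every other library of its arm.

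Solyc01g006680.4 and Solyc01g006670.2 are neighbouring rows of the table and both were dip loci that fell at day 5 in WD leaves. Solyc01g006670.2 had 27.4, 26.7 and 24.9 CPM at day 4, 4.11, 4.77 and 4.56 CPM at day 5 and 8.72 and 7.25 CPM at day 8 there. In WW leaves it had 15.7, 13.4 and 17.1 CPM, 4.98, 4.66 and 6.11 CPM, and 10.5 and 11.4 CPM on these days. Its WD log2 fold change of day 5 against day 4 was -2.50 (SE 0.122, adjusted p = 3.48e-14). Identifiers are numbered along each chromosome, and 12 pairs of the 150 loci stood within 10 rows of each other, 8 of them within the same set. Whether such pairs are near-identical copies that share reads could not be judged. By the chromosome digits of the identifiers the peak set was spread over all 12 chromosomes with 3 to 8 loci each, besides the 3 unplaced loci above, and the dip set over all 12 with 2 to 10 loci each.

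The difference between the arms on the days of the choice is a description, since each comparison shares WW libraries with it. At day 5 the median of L in WD minus WW leaves was -0.86 over the peak set and 0.91 over the dip set, against 0.07 over all loci tested. At day 4 the medians were -0.20 and 0.35, with 0.06 over all loci. At day 8 they were 0.61 and -0.14, with 0.00 over all loci. WD leaves thus stood below WW leaves at 69 of 75 peak loci at day 5, beside 7359 of the 18566 loci tested. At day 8 WD leaves stood above WW leaves at 49 of 75, beside 9282 of the 18566. At 15 of the 75 peak loci the WD level of day 8 was at or above the WW level of day 5. Choosing loci for a high WW day 5 bears on this count, and no share over all loci was counted.

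The second question was how the loci behaved in leaves of different age. Young libraries came from a whole leaf and mature ones from 1 leaflet, so leaf age cannot be told apart here from the part sampled. In WW plants at day 10, 41 of the 75 peak loci (54.7%) were higher in young than in mature leaves and 2 were lower, where 9.54% of the 19087 loci tested were higher and 7.68% lower. In the dip set 30 loci (40.0%) were lower in young leaves and 7 were higher. The median log2 fold change of young against mature leaf was 0.81 in the peak set and -0.37 in the dip set, against 0.03 over all loci. None of these day 10 libraries took part in the choice. Mature WW leaves of day 10 resembled those of days 4 and 8 at most of these loci, as given above, so the levels of mature leaf in this comparison are not unrelated to the levels that the choice used.

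Without replicate 1 of the mature WD day 10 group, 49 peak loci were higher and 38 dip loci lower in young leaves, with a background of 17.8% and 16.1%. The lowest count of the peak set was 29, without replicate 2 or replicate 3 of the mature WW group, where the background was 3.95% and 4.15%. The small counts in the other directions, 2 peak loci lower and 7 dip loci higher, became 1 and 3 without mature WW replicate 2 and 0 and 2 without mature WW replicate 3. They were 5 and 8 without replicate 1 of the mature WD group.

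**Figure D3:**
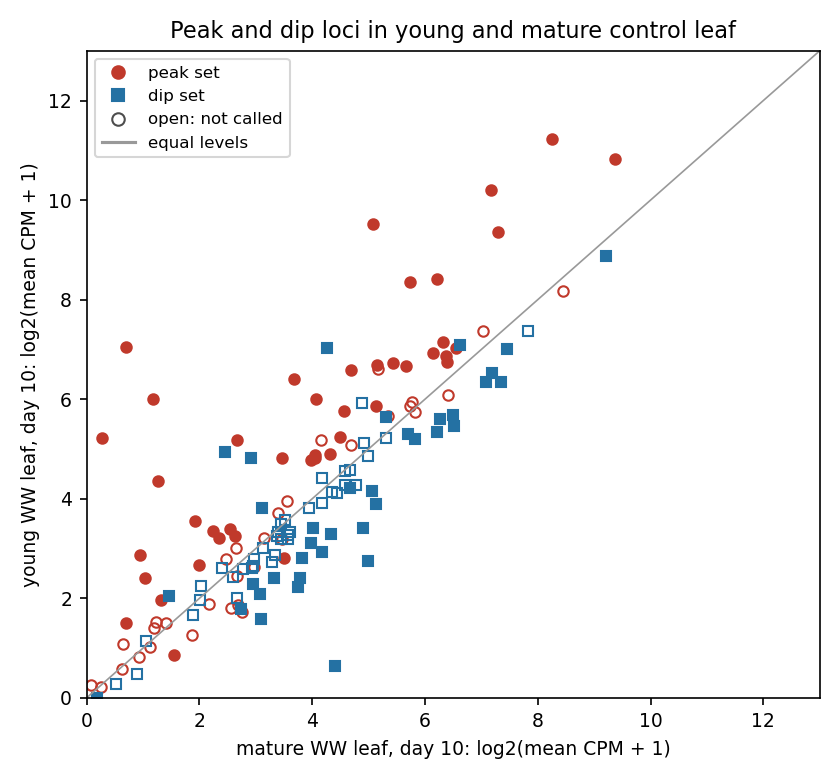
Level of each locus in young WW leaf (vertical axis) and mature WW leaf (horizontal axis) at day 10, as log2(mean CPM + 1), n = 3 and n = 2 libraries; filled points were called, and the line marks equal levels. Of the peak loci, 41 filled points lie above the line, and of the dip loci 30 lie below it.

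Under the rule for naming loci, the largest contrast of leaf age was at Solyc09g083435.1, a peak locus. Young WW leaves had 162, 114 and 120.2 CPM, against 0.694 and 0.541 CPM in mature WW leaves at day 10, a log2 change of 7.75 (SE 0.857, adjusted p = 2.99e-06). In mature WD leaves it had 2.75, 1.36 and 1.80 CPM at day 4, 16.7, 11.2 and 14.8 CPM at day 5 and 44.1 and 43.4 CPM at day 8. In mature WW leaves it had 3.36, 2.44 and 3.09 CPM at day 4, 7.45, 9.21 and 7.04 CPM at day 5 and 0.31 and 0.166 CPM at day 8. Its WD course was a climb through day 8, where its WW course was a peak followed by very few counts. The WD rise at day 5 against day 4 was 2.90 (SE 0.190, adjusted p = 1.02e-10), and day 5 was below day 8 by a log2 change of -1.66 (SE 0.150, adjusted p = 4.18e-08), a difference not called with all 27 libraries in the fit.

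Solyc09g084470.3 stands 3 rows away from it and had a like course. Young WW leaves had 41.5, 36.3 and 30.6 CPM, against 0.373 and 0.0541 CPM in mature WW leaves, which rest on 8 counts in all. The fitted log2 fold change was 7.37 (SE 0.623, adjusted p = 5.62e-08), and it was 9.22 without mature WW replicate 2 and 6.57 without mature WW replicate 3. Mature WD leaves had 2.15, 1.92 and 1.62 CPM at day 4, 5.61, 5.52 and 5.52 CPM at day 5 and 33.2 and 30.6 CPM at day 8.

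The largest falls in young leaf under that rule were at dip loci. Solyc05g006870.3 had 6.09, 5.62 and 5.54 CPM in young WW leaves, against 29.5 and 32.2 CPM in mature WW leaves at day 10 (log2 fold change -2.40, SE 0.183, adjusted p = 9.42e-09). Over days its mature WD leaves had 14.02 to 16.1 CPM at day 4, 17.03 to 19.7 CPM at day 5 and 19.3 and 16.1 CPM at day 8, while mature WW leaves had 11.5 to 16.2 CPM, 3.34 to 4.50 CPM, and 13.1 and 12.9 CPM. No WD library of day 5 lay below a WD library of day 4 at this locus, and WD day 5 was higher than day 4 by 0.34 on the log2 scale (adjusted p = 0.0405). Solyc01g006680.4, described above, had 9.39 to 9.74 CPM in young WW leaves, against 27.6 and 30.3 CPM in mature WW leaves (log2 fold change -1.57, SE 0.236, adjusted p = 7.6e-05).

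**Figure D4:**
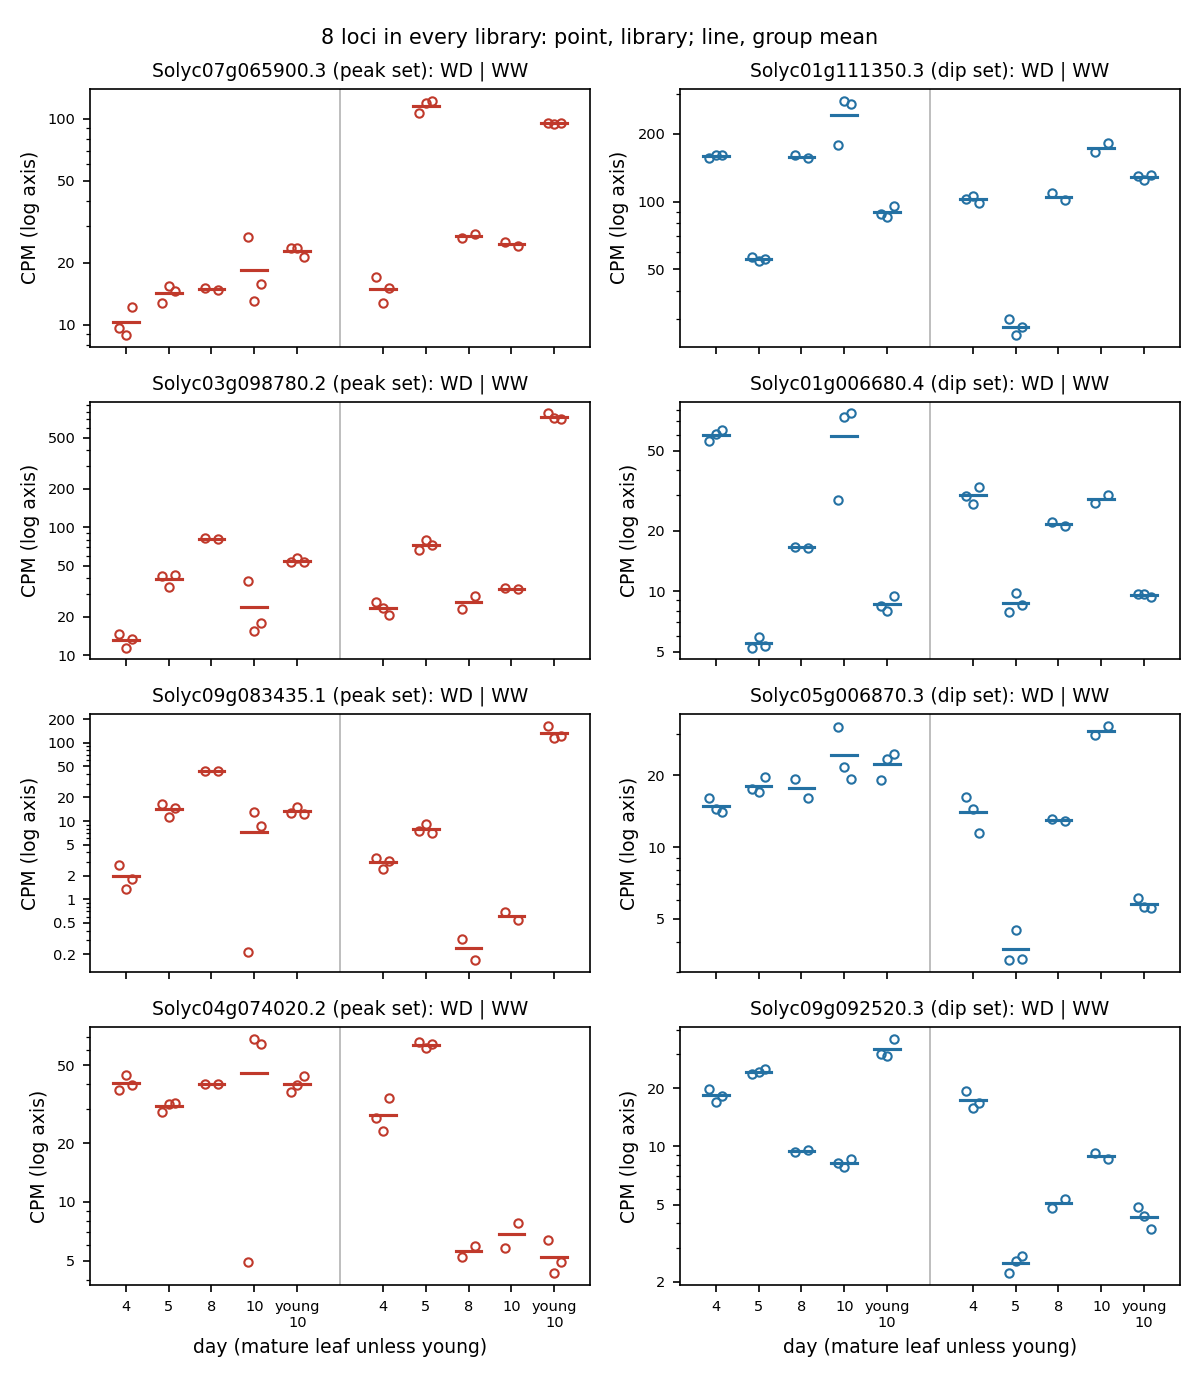
CPM in every library (log axis) for 8 of the named loci, 4 of the peak set in the left column and 4 of the dip set in the right; WD groups stand left of the line and WW groups right of it, points are libraries and bars group means. Solyc01g111350.3 and Solyc01g006680.4 dip at day 5 in both arms, whereas Solyc04g074020.2 and Solyc09g092520.3 move in opposite directions in the 2 arms.

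The remaining comparisons asked whether the loci differed between the arms at day 10. Of the peak set in young leaf, 22 loci were higher and 25 lower in WD than in WW leaves (29.3% and 33.3%), and of the dip set 36 were higher and 24 lower (48.0% and 32.0%), beside 36.2% and 35.2% of all loci tested. Without replicate 1 of the mature WD day 10 group the counts were 25 and 31 for the peak set and 38 and 25 for the dip set, beside 38% and 37.3%. The largest rises in young leaf under the rule for naming loci were at peak loci. Solyc05g008960.3 had 13.4, 14.8 and 16.1 CPM in young WD leaves, against 1.63, 1.51 and 1.79 CPM in young WW leaves (log2 fold change 3.13, SE 0.525, adjusted p = 3.48e-05). Solyc04g074020.2 had 36.4, 39.5 and 43.9 CPM in young WD leaves, against 6.37, 4.32 and 4.96 CPM in young WW leaves (log2 fold change 2.91, SE 0.528, adjusted p = 8.52e-05).

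The largest falls under that rule were at peak loci as well. Solyc03g098780.2 had 53.5, 57.9 and 53.00 CPM in young WD leaves, against 775, 713 and 706 CPM in young WW leaves (log2 fold change -3.76, SE 0.239, adjusted p = 4.01e-10). Solyc09g064820.1 had 2.68, 2.97 and 2.75 CPM in young WD leaves, against 33.6, 32.5 and 39.6 CPM in young WW leaves (log2 fold change -3.68, SE 0.529, adjusted p = 7.35e-06). In mature leaf Solyc09g064820.1 had 3.30 to 4.93 CPM at day 5 in WD leaves, against 73.4 to 79.5 CPM in WW leaves.

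In mature leaf at day 10, 27 peak loci were called higher and 10 lower in WD than in WW libraries with all 27 libraries in the fit (36% and 13.3%, background 22.7% and 12.4%, or 35.1% in either direction). Of the dip set, 14 were higher and 5 lower. Without WD replicate 1, 34 peak loci were higher and 25 lower (background 32.6% and 29.8%, or 62.3% in either direction), and 27 dip loci were higher and 22 lower. These counts rest on few libraries. The share of all loci tested at an unadjusted p under 0.05 in edgeR's test was not counted. Member counts at that threshold, here and in the next paragraph, are therefore no result about these loci. Without WW replicate 2, edgeR called 0 of all 19393 loci tested and so 0 peak loci in either direction, with 26 higher and 10 lower at an unadjusted p under 0.05, and 0 dip loci, with 15 higher and 9 lower. DESeq2 on all libraries called 27 peak loci higher and 12 lower, beside 22.8% and 12.9% of all loci.

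Without WW replicate 3, 11 peak and 4 dip loci were called higher, beside 6.78% of all loci. Without WD replicate 2 the counts were 16 and 8, beside 11.2%, and without WD replicate 3 they were 19 and 7, beside 12.4%. None of these 3 fits called a locus of either set lower, where 0.485%, 0.808% and 0.981% of all loci were, although 3 to 8 loci per set were lower at an unadjusted p under 0.05 in edgeR's test, and DESeq2 called 5 dip loci lower with all libraries.

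Under the rule for naming loci the leading rise there was again at Solyc09g083435.1, with 0.21, 12.9 and 8.76 CPM in mature WD libraries, replicate 1 first, against 0.694 and 0.541 CPM in mature WW libraries. Its log2 fold change was 3.49 (SE 0.852, adjusted p = 0.0065), and 4.07 (SE 0.352) without WD replicate 1, which alone lay below the WW libraries. Solyc05g008960.3 had 1.52, 19.5 and 19.9 CPM in mature WD libraries, against 1.33 and 1.24 CPM in mature WW libraries (3.34, SE 0.637, adjusted p = 0.0034, and 3.86 without replicate 1). The leading falls were smaller with replicate 1 in place. Solyc05g053760.5 had 126, 24.7 and 28.05 CPM in mature WD libraries, against 128 and 132 CPM in mature WW libraries (-1.13, SE 0.416, adjusted p = 0.0419, and -2.36 without replicate 1). Solyc02g089250.4 had 22.2, 7.03 and 8.28 CPM in WD and 24.4 and 24.4 CPM in WW libraries (-0.98, SE 0.338, adjusted p = 0.0321, and -1.75 without replicate 1). At each of these 4 loci, replicate 1 stood near the WW values or beyond them, far from the other WD libraries.

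**Figure D5:**
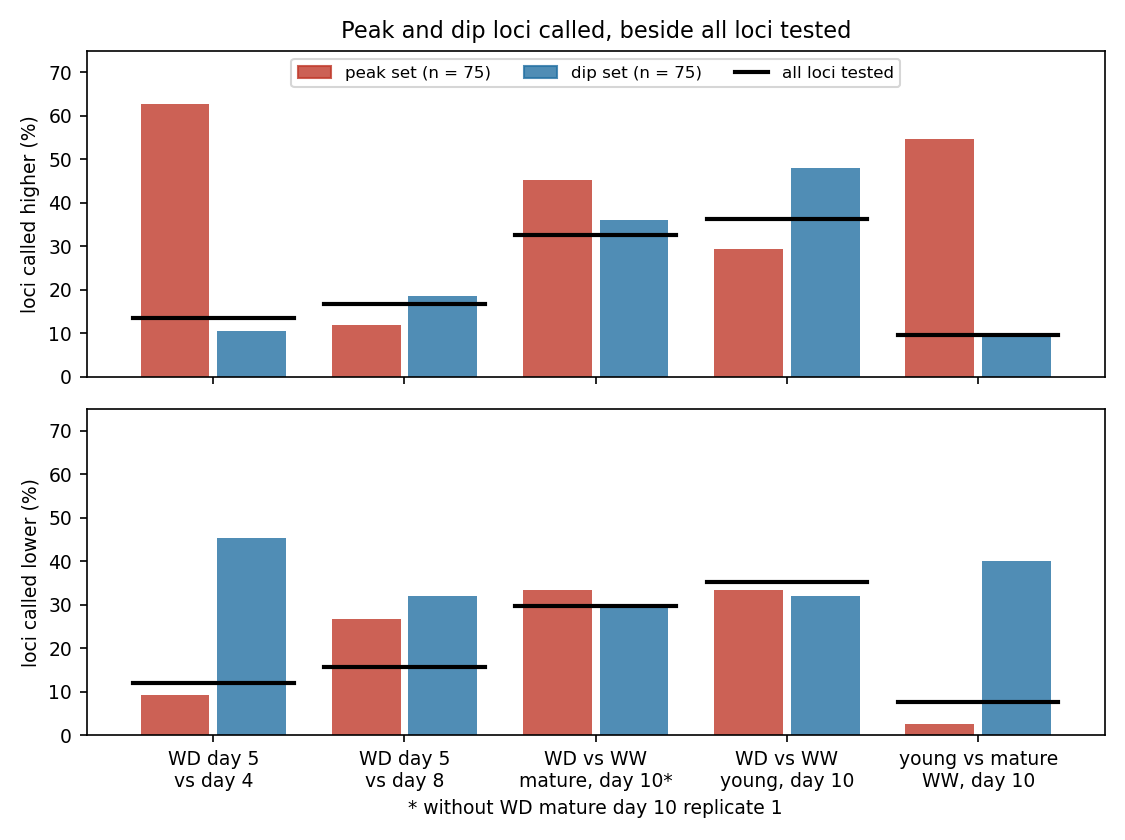
Share of the 75 loci of each set called higher (upper panel) and lower (lower panel) in 5 comparisons, in percent, with black lines for the share among all loci tested; the asterisk marks the fit without WD mature day 10 replicate 1. For WD day 5 against day 4 and for leaf age, the peak bars of the upper panel (62.7% and 54.7%) stand far above the lines. So do the dip bars of the lower panel (45.3% and 40.0%). The other bars of these comparisons do not exceed the lines. Between the arms at day 10, 45.3% of the peak set was higher in mature leaf where the line stands at 32.6%, and 29.3% in young leaf where it stands at 36.2%.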

How the data were processed

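The authors deposited whole-number read counts per locus for 27 libraries of polyadenylated RNA. Aligner, counter, genome build, annotation and use of strand are not given in the sources used here, and the submitters' processing notes name DESeq2 with no role. Columns were matched to libraries by the sample description, and groups came from the titles. Within groups, no pair of libraries that was checked agreed within sampling noise (lowest ratio of chi-square to its degrees of freedom, 2.93). Pairs of the mature WD day 10 group and pairs across groups were not checked in this way. All libraries were kept.

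The rule was applied to all 34688 loci, of which 10322 had no count. The main tests used edgeR 4.0.16 in R 4.3.3, with filterByExpr, TMM scaling, one coefficient per group, robust quasi-likelihood F tests and Benjamini-Hochberg adjustment, called at an adjusted p below 0.05. The WD time course was fitted on the 16 mature libraries of days 4, 5 and 8 (18566 loci, holding 99.97% of their counts, totals 16152430 to 19463781), so that the day 10 library that stood apart has no part in its spread. Day 10 comparisons were fitted on all 27 libraries (19087 loci). Standard errors are the fold change over the square root of F. No pairing of libraries was assumed.

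Named loci were the 2 of each set with the largest rule value and, per contrast, the 2 largest called rises and falls with a mean log2 CPM of at least 3. Planned gene and marker lists could not be run, because 0 identifiers matched the reference table. Members, lists and tests were chosen with earlier results of these data known. The scripts were tested on simulated data. The alternatives tried were scaling by upper quartile or RLE, other filters, DESeq2 1.42.0, other libraries in the fit, a replicate block and leaving out single libraries.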

Additional observations from a re-analysis of the deposited data

Results flagged for a closer look

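At 4 peak loci and at 2 dip loci the day 5 libraries lay beyond every library of days 4 and 8 in both arms, but in opposite directions, which called for a closer look. Taking the WD side alone, 5.33% of the peak loci lay below every library of the other days, where 8.5% of all loci did, and 2.67% of the dip loci lay above, where 6.76% did, so neither share exceeds that of other loci. The difference between the arms was not tested, since the WW side chose the loci. These loci were picked out after their values were seen, and the 2 of each set with the largest rule value are given. Solyc04g074020.2 had 37.3, 44.8 and 39.6 CPM at day 4, 28.9, 31.8 and 32.2 CPM at day 5 and 40.1 and 40.3 CPM at day 8 in WD leaves, and 26.8, 22.95 and 34.1 CPM, 65.6, 61.1 and 64.1 CPM, and 5.26 and 5.97 CPM on these days in WW leaves. Solyc09g083200.4 had 47.2 to 50.7 CPM at day 5 and 55.4 to 62.6 CPM on the other days in WD leaves, and 81.02 to 93.05 CPM at day 5 and 14.5 to 46.97 CPM on the other days in WW leaves. Both had a WW level at day 8 well below that of day 4. Solyc04g071770.3, a dip locus, had 6.05 to 8.65 CPM at day 5 and 1.496 to 4.18 CPM on the other days in WD leaves, and 0.719 to 1.11 CPM at day 5 and 2.82 to 7.46 CPM on the other days in WW leaves. Solyc09g092520.3 had 23.7, 24.2 and 24.98 CPM at day 5 in WD leaves, against 2.21, 2.54 and 2.73 CPM in WW leaves. Within the WD arm its day 5 was above day 8 by 1.32 on the log2 scale (SE 0.116, adjusted p = 7.02e-09, quasi-likelihood F test of edgeR) and above day 4 by 0.46.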

How the results depend on the processing

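Choosing the sets again kept 53 to 75 of the 75 peak loci and 50 to 75 of the 75 dip loci over 5 other scalings, pseudocounts and filters, the lowest with a pseudocount of 5. Leaving out single WW libraries kept 66 to 72 and 64 to 70. In the WD arm, the counts of peak loci called higher and dip loci called lower stayed within 1.5 times of those reported except with all 27 libraries in the fit, where 25 peak loci (39 reported) exceeded the mean of days 4 and 8, 4 (9 reported) exceeded both days and 4 (9 reported) exceeded day 8. The same fit called 9 peak loci below day 8 (20 reported) and 5 dip loci above it (14 reported). Against the mean of days 4 and 8 it called 1 peak locus lower (10 reported) and 3 dip loci higher (8 reported). Against day 4 it called 4 peak loci lower (7 reported) and 5 dip loci higher (8 reported). Of all loci, 4.87% were lower and 5.83% higher than at day 4. Of all loci in that fit, 3.73% exceeded the mean of days 4 and 8 and 2.78% were below it. Against day 8, 6.65% were higher and 5.32% lower. The share that exceeded both days was not counted. The leaf age counts ranged from 29 to 49 for the peak set and 23 to 38 for the dip set when single libraries were left out. In mature leaf at day 10, a fit of the 2 compared groups alone in edgeR called 0 of all 17949 loci tested, and so 0 of either set, higher or lower. At an unadjusted p under 0.05 in edgeR's test, 9 peak and 2 dip loci were higher and 0 lower. The share of all loci at that threshold was not counted. Leaving out single libraries moved the peak set there to 0 to 34 higher and 0 to 25 lower, and the dip set to 0 to 27 higher and 0 to 22 lower. The replicate block moved the dip loci called lower there to 9 from 5 and changed no other reported count by over 1.5 times except peak loci below both days in the WD arm, 2 in place of 1; the deviations of same-numbered libraries from their group means correlated at -0.140 to 0.137, so the numbers were not taken to pair them. Of 360 values of named loci under alternatives, 341 kept their call and direction, 19 lost the call and 0 reversed. For changes beyond the construction of an alternative, the cause was not tested.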
